A study of Homo sapiens with 6 samples.

Results

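The interleukin 1 family members examined here are the ligands IL1B, IL1A and IL33, the receptor antagonist IL1RN, and the receptor chains IL1R1, IL1RAP and IL1RL1. They are 7 named genes out of 19755 in the protein-coding gene table, each found there by its symbol. Transcript levels came from bulk RNA-seq of 3 libraries from cells given lipopolysaccharide (LPS, a glycolipid that coats Gram-negative bacteria), given at 1000 ng/ml over 12 h, and of 3 control libraries labelled with the same time of 12 h. Both groups carry the cell line label EA.hy926, a hybrid made by fusing a human umbilical vein endothelial cell with the lung carcinoma line A549, while the titles also name human umbilical vein endothelial cells. The genotype field reads WT for controls and names LPS for the LPS libraries, and the treatment field reads sepsis in every library, so the groups were taken from the titles. The labels do not say what the controls received, nor whether replicates were separate cultures, so p-values measure only the spread between these libraries.

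As background, interleukin 1 alpha (IL1A) and interleukin 1 beta (IL1B) are inflammatory cytokines that bind the receptor IL1R1, which then recruits the accessory chain IL1RAP and signals through MYD88 to NF-kB. IL1RN binds IL1R1 without recruiting IL1RAP and so blocks it. Interleukin 33 (IL33) is held in the nucleus of many endothelial cells and, once released, binds IL1RL1 (also called ST2) together with the same IL1RAP, and a secreted short form of ST2 acts as a decoy.

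Levels are given in FPKM, fragments scaled by transcript length and by the mapped fragments of the library, as the authors calculated them, and read depth is unknown because FPKM carries none. Summed FPKM over protein-coding genes lay between 256257 and 264878 in LPS libraries and between 256047 and 260730 in control libraries. All 10 endothelial markers examined passed the filter on low values, with summed levels of 391 to 468 FPKM in LPS libraries and 310 to 417 FPKM in control libraries. Those sums overlapped, but 9 of the 10 markers had a positive log2 difference. Groups did not overlap for 5 higher and 1 lower, against 8.68% and 8.73% of all genes that passed the filter. The lower marker was EMCN, with a log2 difference of -1.12 (SE 0.22). The part of these endothelial differences in the results below was not tested. The 8 fibroblast and smooth muscle markers summed far higher than the endothelial markers, to 3419 to 3854 FPKM in LPS libraries and 3473 to 3902 FPKM in control libraries. Most of that was the collagen genes COL1A1, COL1A2 and COL3A1, with COL1A1 at 1457 to 1565 FPKM in LPS libraries and 1277 to 1548 FPKM in control libraries. Of the 7 that passed the filter, COL3A1 and LUM, a proteoglycan gene of fibroblasts, were lower in every LPS library than in any control library. The share over all genes that passed the filter was 8.73%. The other markers that passed it overlapped between groups, and COL1A1 and PDGFRB had positive log2 differences of 0.13 and 0.15. MYH11, under the filter, was higher in every LPS library. The cells were therefore not described by endothelial and A549 markers alone, and the part of these markers in the results below was not tested. Among 9 epithelial and A549 markers, EPCAM and CDH1 were at or near 0 and SFTPC and NKX2-1 were at 0, while the keratins KRT7, KRT8, KRT18 and KRT19 were present. The summed level of those 9 was 91.2 to 114 FPKM in LPS libraries and 125 to 138 FPKM in control libraries, without overlap. KRT8, KRT18 and KRT19 were lower in every LPS library, whereas KRT7 was higher, at 18.8, 20.2 and 32.5 FPKM in LPS libraries and 17.7, 17.4 and 15.9 FPKM in control libraries. Of all genes that passed the filter, 8.73% were lower and 8.68% higher without overlap. The part of these keratins in the results below was not tested.

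IL1B was higher and IL33 lower in every LPS library than in any control library, and the receptor chains overlapped between groups. Differences were tested with limma on log2(FPKM + 0.5) across the 12068 protein-coding genes whose mean reached 0.5 FPKM, and an adjusted p under 0.05 (Benjamini-Hochberg over all those genes) was the threshold. Of the 7 members, 5 passed the filter and 0 passed the threshold by limma, against 0.058% of all genes tested. At an unadjusted p under 0.05, IL1B was higher and IL33 lower, which is 2 of the 5, against 10.4% of all genes tested. The groups did not overlap for the same 2 members, against 17.4% of all genes tested (8.68% higher and 8.73% lower). With 5 genes these shares are a description and carry no test. Because these are bulk samples, fewer cells expressing a gene and less RNA per cell cannot be told apart.

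**Figure D1:**
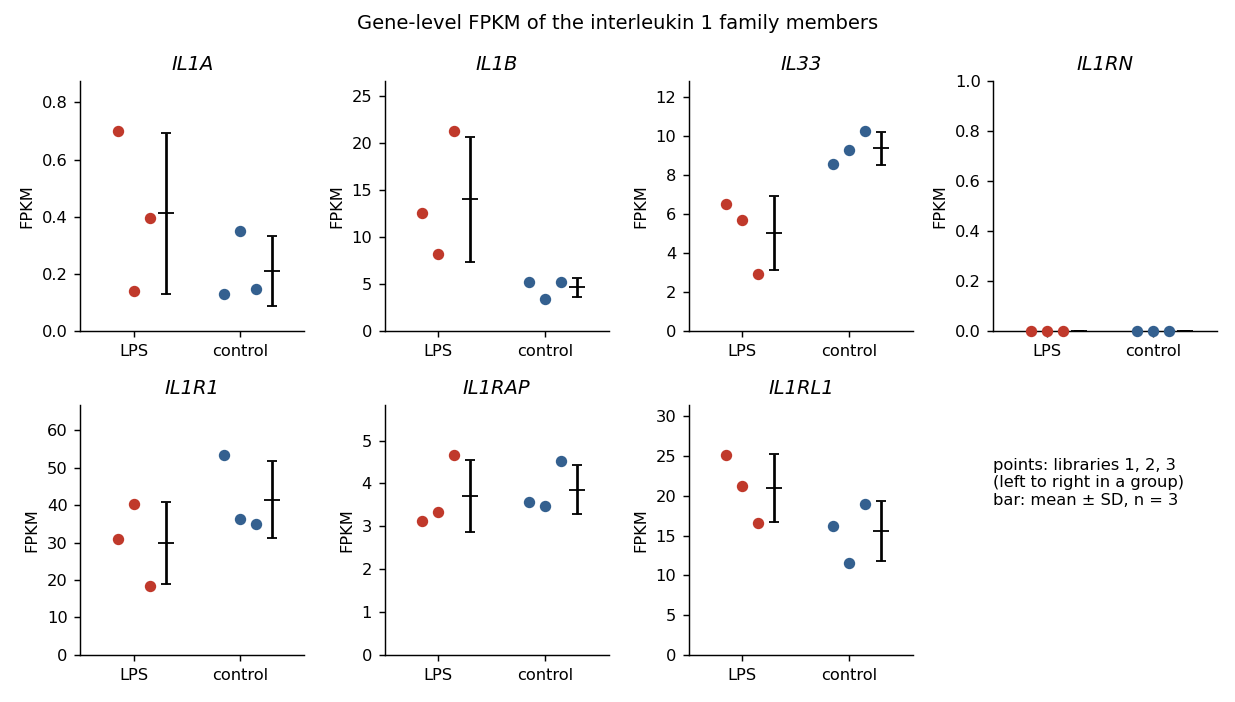
Expression of the 7 members in each library, in FPKM on a linear axis, with LPS libraries left of control libraries, points for single libraries and bars for the group mean ± SD (n = 3). IL1B lies between 8.17 and 21.2 FPKM in LPS libraries, above the control libraries, IL33 lies below them, and IL1RN is at 0 throughout.

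IL1B, the gene of the secreted cytokine that caspase 1 cuts from its precursor, lies on the minus strand of chromosome 2 (chr2:112829751-112836903, GRCh38). Its level was 12.5, 8.17 and 21.2 FPKM in LPS libraries 1, 2 and 3, against 5.21, 3.44 and 5.27 FPKM in control libraries 1, 2 and 3. The lowest LPS library was above the highest control library, and the LPS libraries spread more widely than the controls. The mean was 13.98 ± 6.65 FPKM in LPS libraries and 4.64 ± 1.04 FPKM in control libraries (SD, n = 3 each), a ratio of 3.01. The log2 difference was 1.41 (SE 0.32, 95% interval 0.66 to 2.17), with an adjusted p of 0.236 by limma. The unadjusted p was 0.0028, so IL1B was separated between these libraries but did not pass the correction over all genes.

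The IL1B difference was carried mainly by the transcript with the full coding sequence, IL1B-201, which spans 7 exons and 807 coding bases. IL1B-201 had 11.1, 4.07 and 14.0 FPKM in LPS libraries 1 to 3, against 1.37, 2.02 and 2.12 FPKM in control libraries 1 to 3. Its groups did not overlap, and its log2 difference of 1.99 (SE 0.47) had an adjusted p of 0.474 by limma over the 20563 transcripts tested. This transcript made up 88.8%, 49.9% and 66.0% of the gene's summed level in the LPS libraries and 26.4%, 58.7% and 40.2% in the control libraries, so its share overlapped between groups. The 4 annotated IL1B transcripts without a coding sequence, which include retained introns, summed to 1.03, 2.69 and 5.43 FPKM in LPS libraries and 3.15, 1.02 and 2.55 FPKM in control libraries. IL1B-208 and IL1B-205, both with retained introns, were the most abundant of them. Those noncoding sums overlapped between groups, and in control library 1 they exceeded the coding transcripts. The partial coding transcript IL1B-204 averaged 1.06 ± 0.738 FPKM in LPS libraries and 0.499 ± 0.158 FPKM in control libraries, with overlapping groups.

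Monocytes and macrophages are the best known source of IL1B, and their markers were read beside it. Of 11 such markers, 2 passed the filter, and the leukocyte gene PTPRC and the myeloid genes AIF1, FCGR3A, CD163 and TYROBP were at 0 in all 6 libraries. The summed level of the 11 was 5.01 to 7.11 FPKM in LPS libraries and 4.39 to 8.94 FPKM in control libraries, so the sums overlapped. Most of that sum was CD68, a lysosomal protein found outside myeloid cells as well, at 4.30 to 6.45 FPKM in LPS libraries and 3.70 to 7.61 FPKM in control libraries. CD14, the co-receptor that passes LPS to its receptor, was at 0.309 to 0.431 FPKM in LPS libraries and 0.484 to 1.14 FPKM in control libraries.

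IL1A encodes the other agonist of IL1R1, a cytokine active in its precursor form and often kept in the cell, and lies next to IL1B on chromosome 2 (chr2:112773915-112784590, minus strand, GRCh38). It was near the floor of the data, with 0.699, 0.139 and 0.396 FPKM in LPS libraries 1 to 3 and 0.130, 0.352 and 0.148 FPKM in control libraries 1 to 3. The groups overlapped, and the mean of 0.311 FPKM over all libraries was under the filter, so IL1A was not tested. IL1B exceeded IL1A by a ratio of 17.9 to 58.8 in LPS libraries and 9.79 to 40.1 in control libraries.

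IL33 lies on the plus strand of chromosome 9 (chr9:6215786-6257983, GRCh38). Its level was 6.54, 5.73 and 2.91 FPKM in LPS libraries 1 to 3, against 8.60, 9.30 and 10.3 FPKM in control libraries 1 to 3. All LPS libraries lay below all control libraries, and LPS library 3 was the lowest. The mean was 5.06 ± 1.90 FPKM in LPS libraries and 9.39 ± 0.841 FPKM in control libraries (SD, n = 3 each), a ratio of 0.539. The log2 difference was -0.89 (SE 0.26, 95% interval -1.50 to -0.28), with an adjusted p of 0.336 by limma and an unadjusted p of 0.010. The difference shrank to -0.58 without LPS library 3, with the groups still apart.

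Nearly all of the IL33 level came from IL33-201, the transcript with the longest coding sequence at 810 bases. IL33-201 had 6.32, 5.69 and 2.84 FPKM in LPS libraries 1 to 3, against 8.49, 9.09 and 10.3 FPKM in control libraries 1 to 3. Its log2 difference of -0.91 (SE 0.30) had an adjusted p of 0.712 by limma. At the level of single libraries, the ratio of IL1B to IL33 was 1.92, 1.43 and 7.28 in the LPS libraries and 0.606, 0.370 and 0.513 in the control libraries. IL1B was thus the more abundant of these ligands per length in each LPS library, and IL33 in each control library.

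IL1RN encodes the natural antagonist of IL1R1 and lies on the plus strand of chromosome 2 (chr2:113107214-113134016, GRCh38). It was listed at 0 in all 6 libraries, and so was each of its 9 annotated transcripts. No fold change can be given for it.

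**Figure D2:**
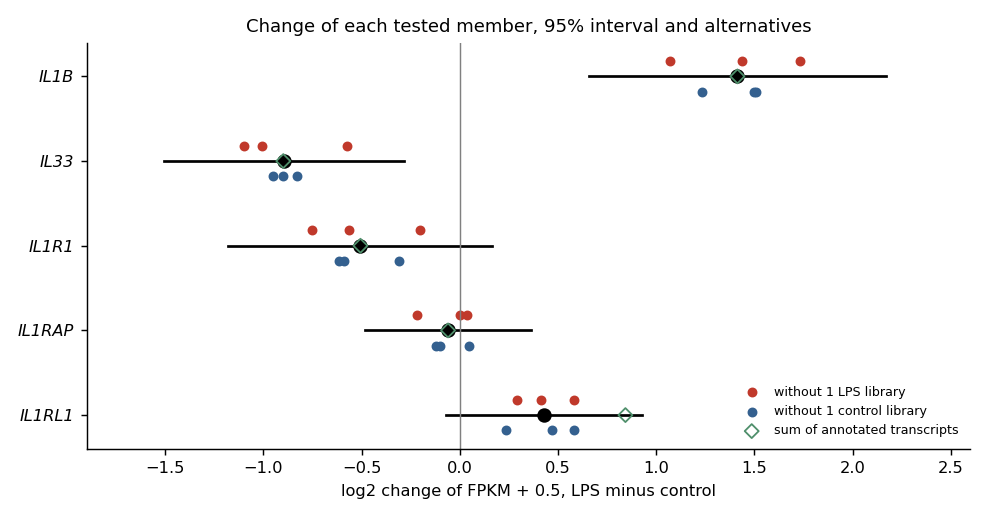
Log2 difference of LPS minus control for the 5 tested members on the log2(FPKM + 0.5) scale, with the 95% interval of the fit to all 6 libraries, red and blue points for values without single LPS or control libraries, and diamonds for the sum of annotated transcripts. The intervals of IL1B (0.66 to 2.17) and IL33 (-1.50 to -0.28) exclude 0 before adjustment, and those of the receptor chains include it.

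IL1R1, the signalling receptor of IL1A and IL1B, was the most abundant member in every library except LPS library 3, where IL1B exceeded it. It lies on the plus strand of chromosome 2 (chr2:102064544-102179874, GRCh38). Its level was 30.9, 40.4 and 18.5 FPKM in LPS libraries 1 to 3, against 53.5, 36.2 and 34.8 FPKM in control libraries 1 to 3. The groups overlapped because LPS library 2 lay above control libraries 2 and 3. The log2 difference was -0.51 (SE 0.29, 95% interval -1.18 to 0.17), with an adjusted p of 0.585 by limma. It was -0.75 without LPS library 2, with an unadjusted p of 0.030, and -0.20 without LPS library 3.

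Most of the IL1R1 level was assigned to a transcript pair that differs at the 3' end of the coding sequence. IL1R1-205 encodes the longest form, and IL1R1-201 shares its first 1303 coding bases and then reads into another ending. The sequences below are shown because they mark where the long and the shorter form part, with lower case for the last shared coding bases and capitals for what follows (GENCODE 29, GRCh38, plus strand of chromosome 2, stop codon left out).
IL1R1-205: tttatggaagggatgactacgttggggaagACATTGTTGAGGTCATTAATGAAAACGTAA
IL1R1-201: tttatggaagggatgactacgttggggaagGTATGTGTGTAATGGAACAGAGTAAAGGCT
IL1R1-205 has 1707 coding bases and IL1R1-201 has 1341.

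IL1R1-201 was at 22.9, 16.8 and 15.2 FPKM in LPS libraries 1 to 3, against 25.5, 26.6 and 20.9 FPKM in control libraries 1 to 3. Its groups overlapped, with a log2 difference of -0.42 (SE 0.19) and an adjusted p of 0.741 by limma. IL1R1-205 was at 2.18, 20.1 and 0.484 FPKM in LPS libraries 1 to 3, against 23.5, 4.13 and 7.50 FPKM in control libraries 1 to 3. The share of the gene assigned to IL1R1-205 therefore ranged from 2.62% to 49.8% in LPS libraries and from 11.4% to 44.0% in control libraries, which is a wide spread within both groups. IL1R1-202, with the coding sequence of IL1R1-201, averaged 2.03 ± 0.949 FPKM in LPS libraries and 3.55 ± 1.03 FPKM in control libraries, with overlapping groups. The log2 difference of IL1R1-205 was -1.34 (SE 1.246), and it ran from -2.56 without LPS library 2 to -0.37 without LPS library 3. IL1R1-204 and IL1R1-210 averaged under 1 FPKM in both groups and overlapped. The antisense gene IL1R1-AS1 overlaps IL1R1 and was at 0.941 to 4.33 FPKM in LPS libraries and 1.30 to 2.61 FPKM in control libraries. Whether the authors counted by strand is not given in the sources used here, and reads of the overlap may belong to either gene.

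IL1RAP, the accessory chain shared by the IL1R1 and IL1RL1 complexes, lies on the plus strand of chromosome 3 (chr3:190514051-190659750, GRCh38). It was at 3.12, 3.33 and 4.67 FPKM in LPS libraries 1 to 3, against 3.58, 3.47 and 4.52 FPKM in control libraries 1 to 3. The groups overlapped and the means were close, at 3.71 ± 0.840 FPKM in LPS libraries and 3.85 ± 0.576 FPKM in control libraries (SD, n = 3 each). The log2 difference was -0.060 (SE 0.18, 95% interval -0.48 to 0.36), with an adjusted p of 0.934 by limma. This interval allows a change of either sign.

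IL1RAP also has a membrane form and a short form, and the short form is known as a secreted inhibitor. The sequences show where the coding sequence of IL1RAP-209, a short form, leaves that of IL1RAP-201, a membrane form, after 1051 shared coding bases, with capitals for the bases past that point (GENCODE 29, GRCh38, plus strand of chromosome 3).
IL1RAP-201: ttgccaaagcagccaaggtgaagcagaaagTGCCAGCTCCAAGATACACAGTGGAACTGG
IL1RAP-209: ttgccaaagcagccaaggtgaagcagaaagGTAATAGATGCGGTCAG
The 4 transcripts with the membrane coding sequence made up 76.1% to 93.6% of the gene's level in LPS libraries and 66.8% to 90.3% in control libraries. The 2 short-form transcripts made up 1.34%, 3.24% and 8.05% in LPS libraries 1 to 3, against 7.42%, 3.14% and 17.0% in control libraries 1 to 3. These shares overlapped between groups. Among the membrane-form transcripts, IL1RAP-201, IL1RAP-211 and IL1RAP-205 were tested, with log2 differences of -0.25 (SE 0.28), 0.65 (SE 0.42) and 0.30 (SE 0.29), and all overlapped between groups. The 2 transcripts with the alternative long coding sequence were listed at 0 in all 6 libraries.

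IL1RL1, the receptor of IL33, lies on the plus strand of chromosome 2 (chr2:102311502-102352037, GRCh38) and was the member with the second highest level in 5 of the 6 libraries. Its level was 25.2, 21.2 and 16.6 FPKM in LPS libraries 1 to 3, against 16.2, 11.5 and 19.0 FPKM in control libraries 1 to 3. LPS library 3 lay within the control range, so the groups overlapped. The mean was 21.0 ± 4.27 FPKM in LPS libraries and 15.6 ± 3.78 FPKM in control libraries (SD, n = 3 each), with a log2 difference of 0.43 (SE 0.21, 95% interval -0.07 to 0.93). The adjusted p was 0.530 by limma. The difference was 0.23 without control library 2, and 0.58 both without LPS library 3 and without control library 3, with unadjusted p-values of 0.033 and 0.035.

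Almost all of the IL1RL1 level was assigned to transcripts that lack the last exons of the full-length receptor. The gene has a distal start, used by the full-length receptor transcript IL1RL1-201, and a proximal start within the gene, used by IL1RL1-202, the secreted decoy form, which ends before the last exons of the full-length form. The sequences are shown because the data separate these forms, and capitals mark the bases that follow the 970 shared coding bases (GENCODE 29, GRCh38, plus strand of chromosome 2, stop codon left out).
IL1RL1-201: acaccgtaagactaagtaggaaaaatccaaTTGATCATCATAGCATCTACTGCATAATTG
IL1RL1-202: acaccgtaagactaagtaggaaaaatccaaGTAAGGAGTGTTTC
The coding sequence of IL1RL1-201 runs to 1668 bases and that of IL1RL1-202 to 984 bases. Full-length IL1RL1-201 was at 0.169, 0.174 and 0.123 FPKM in LPS libraries 1 to 3 and 0.0749, 0.330 and 0.101 FPKM in control libraries 1 to 3, which is 0.673% to 0.822% of the gene's level in LPS libraries and 0.462% to 2.86% in control libraries. Transcripts with a proximal start that end before the last exons made up 97.7% to 99.3% of it in LPS libraries and 96.3% to 99.5% in control libraries. That class includes noncoding transcripts and an assembled one, and it prevailed in each library of both groups. The decoy form IL1RL1-202 was only a part of it. In LPS libraries 1 to 3 IL1RL1-202 was 4.05%, 25.0% and 24.7% of the gene's level. In control libraries 1 to 3 it was 8.34%, 9.78% and 7.46%. IL1RL1-204 leaves the coding sequence of IL1RL1-201 after 683 shared bases. It was 15.4% to 48.7% of the gene's level in LPS libraries and 16.7% to 20.8% in control libraries. The assembled transcript alone made up 44.3%, 50.1% and 24.6% of the gene's level in LPS libraries 1 to 3, and 62.9%, 49.1% and 56.4% in control libraries 1 to 3. It was placed in the class by its start and end only, and its coding sequence was not examined.

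The stretch upstream of each IL1RL1 start is printed because the transcripts separate by start (RefSeq, GRCh38.p14, plus strand). The windows searched were the 250 bases before the first base of the RefSeq transcript, of which the part before the first base of the nearest GENCODE 29 IL1RL1 transcript is shown. The proximal stretch lies inside the longer IL1RL1 transcripts, outside their exons. Capitals in the distal stretch mark GATA motifs (the letters AGATAA or the letters AGATAG, and also the letters TGATAA or the letters TGATAG), and capitals in the proximal stretch mark an AP-1 motif (TGANTCA). The distal stretch is chr2:102311313-102311501, and the proximal stretch is chr2:102337007-102337147.
IL1RL1 distal: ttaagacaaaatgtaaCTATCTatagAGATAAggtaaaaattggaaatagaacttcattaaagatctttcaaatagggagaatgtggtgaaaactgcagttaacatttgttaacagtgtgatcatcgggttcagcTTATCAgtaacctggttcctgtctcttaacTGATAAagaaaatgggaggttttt
IL1RL1 proximal: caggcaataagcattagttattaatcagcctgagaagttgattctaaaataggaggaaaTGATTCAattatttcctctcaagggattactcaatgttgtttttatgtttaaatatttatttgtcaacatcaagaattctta
Searched on both strands, the distal window held 4 GATA matches, 234, 224, 115 and 85 bases upstream of the first base, and the proximal window held 1 AP-1 match 191 bases upstream. No match overlapped another motif, and neither window held the NF-kB consensus, which says only that those letters are not in it. Of 35116 RefSeq promoter windows of the same length, 22.3% held a GATA match, 6.57% an AP-1 match and 9.96% a match to the NF-kB consensus. The motifs were chosen after these sequences were seen, and a match is only a run of letters.

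Within the short forms of IL1RL1, the annotated transcripts IL1RL1-204 and IL1RL1-202 were higher on average in LPS libraries. IL1RL1-204 was at 12.2, 3.27 and 7.27 FPKM in LPS libraries 1 to 3, against 3.26, 2.40 and 3.18 FPKM in control libraries 1 to 3, with groups that did not overlap by a small margin. Its log2 difference was 1.07 (SE 0.46), with an adjusted p of 0.741 by limma, and it was 0.66 without LPS library 1 and 1.54 without LPS library 2. IL1RL1-202 was at 1.02, 5.31 and 4.11 FPKM in LPS libraries 1 to 3, against 1.35, 1.13 and 1.42 FPKM in control libraries 1 to 3, with LPS library 1 below every control, and its log2 difference was 0.94 (SE 0.53). That difference was 1.53 without LPS library 1, with an adjusted p of 0.189 by limma, and 0.56 without LPS library 2. The noncoding IL1RL1-207, with a retained intron, averaged 0.948 ± 0.439 FPKM in LPS libraries and 1.98 ± 1.02 FPKM in control libraries, with overlapping groups. A further transcript assembled by the authors, with the same ends as IL1RL1-202, was at 11.1, 10.6 and 4.10 FPKM in LPS libraries 1 to 3 and 10.2, 5.65 and 10.7 FPKM in control libraries 1 to 3. With that assembled transcript left out, the summed annotated transcripts were at 14.0, 10.6 and 12.5 FPKM in LPS libraries 1 to 3, against 6.002, 5.87 and 8.28 FPKM in control libraries 1 to 3. That sum did not overlap between groups, with a log2 difference of 0.84 (SE 0.17) and an adjusted p of 0.191 by limma. The size of the IL1RL1 difference thus depended on whether the assembled transcript was included. IL18R1 overlaps IL1RL1 on the same strand and was at 1.17 to 1.87 FPKM in LPS libraries and 1.21 to 2.64 FPKM in control libraries, so reads of the overlap may have been split between the genes.

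**Figure D3:**
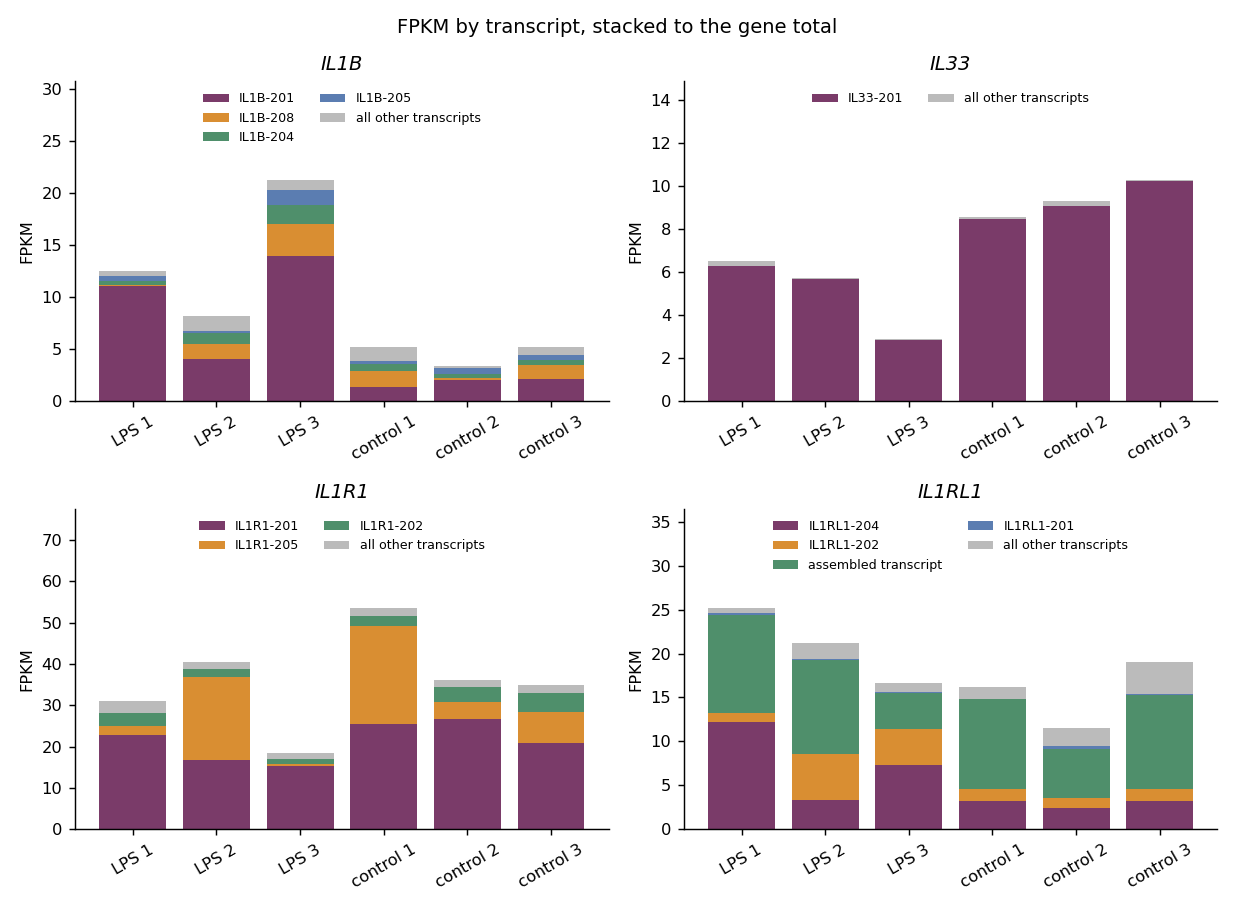
Transcripts of IL1B, IL33, IL1R1 and IL1RL1 in each library, in FPKM stacked to the gene's level, with LPS libraries left of control libraries and a colour for each named transcript. In IL1RL1 the full-length IL1RL1-201 is at most 2.86% of the bar, while IL1R1-205 varies from 2.62% to 49.8% of the IL1R1 bar in LPS libraries.

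Across the 67 transcripts of the 7 members, 13 passed the filter and were tested. By limma, 0 of the 13 passed the threshold, against 0.126% of the 20563 transcripts tested. At an unadjusted p under 0.05, IL1B-201 was higher and IL33-201 lower, against 6.44% of transcripts tested. Groups did not overlap for 3 of the 13, IL1B-201, IL1RL1-204 and IL33-201, against 13.8% of transcripts tested (6.69% higher and 7.07% lower).

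Mast cells and type 2 lymphoid cells are known for IL1RL1, and their markers were read beside it. Among the markers of mast and lymphoid cells, TPSAB1, CD3E, CD4 and NKG7 were at 0 in all 6 libraries. The summed level of the list was 2.39 to 3.14 FPKM in LPS libraries and 3.02 to 3.20 FPKM in control libraries, and most of it came from KIT and CPA3.

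The other genes of the pathway were followed in 4 lists. Of 15 further family ligands, receptors and binding proteins, 3 were tested, IL18BP, IL18R1 and SIGIRR, and 0 had an unadjusted p under 0.05. The interleukin 36 ligands IL36A, IL36B and IL36G, their antagonist IL36RN, and IL37 and IL1F10 were at 0 in all libraries. SIGIRR, a receptor that dampens signalling in this family, was the most abundant of the tested ones, at 17.6, 14.0 and 14.6 FPKM in LPS libraries and 18.4, 17.4 and 9.26 FPKM in control libraries. Its groups overlapped, as did those of IL18BP, a secreted inhibitor of interleukin 18, and IL18R1, a receptor chain for it, with log2 differences of 0.27 (SE 0.23) and -0.16 (SE 0.26).

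Among 23 genes for maturation and release of the cytokines, 16 were tested, of which 1 was higher and 2 were lower at an unadjusted p under 0.05, against 5.13% and 5.26% of all genes tested, and 0 passed the adjusted threshold by limma. The median log2 difference of the 16 was 0.01, beside -0.01 for all genes tested. CTSS, a lysosomal protease, was at 2.83, 2.93 and 2.38 FPKM in LPS libraries 1 to 3, against 1.07, 1.28 and 0.593 FPKM in control libraries 1 to 3, with a log2 difference of 1.14 (SE 0.21) and an adjusted p of 0.173 by limma. The groups did not overlap. CASP8, the initiator caspase of death receptors, averaged 4.71 ± 0.786 FPKM in LPS libraries and 6.36 ± 0.410 FPKM in control libraries, and CASP4, a caspase that binds LPS inside the cell, averaged 16.6 ± 1.08 FPKM in LPS libraries and 20.2 ± 2.03 FPKM in control libraries. Neither overlapped between groups. Of the 16, groups did not overlap for 2 higher and 3 lower genes, against 8.68% and 8.73% of all genes tested. Besides CTSS, CASP8 and CASP4 these were NLRP1, which was higher, and CAPN2, which was lower. GSDME, which encodes a pore-forming gasdermin, and NINJ1, which takes part in rupture of the plasma membrane, overlapped between groups, with log2 differences of -0.43 (SE 0.19) and 0.35 (SE 0.31). CASP1, the enzyme that cuts the IL1B precursor, was at 1.68, 1.29 and 2.13 FPKM in LPS libraries and 1.77, 2.31 and 2.81 FPKM in control libraries, with overlapping groups. NLRP3, a sensor that activates caspase 1, was listed at 0 in all 6 libraries.

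Among 23 genes of receptor signalling, 22 were tested and 0 had an unadjusted p under 0.05 in either direction, with a median log2 difference of 0.01. Groups did not overlap for 1 of the 22, IRAK2, which was higher, against 8.68% of all genes tested. IRAK2 was at 7.22, 5.82 and 5.48 FPKM in LPS libraries and 4.62, 5.16 and 4.79 FPKM in control libraries. It is also counted in the list of interleukin 1 response genes below. The adaptor MYD88 was at 8.83, 12.1 and 9.40 FPKM in LPS libraries and 10.5, 8.46 and 10.1 FPKM in control libraries, with overlapping groups. TAB2, which links TRAF6 to the kinase TAK1, had a log2 difference of -0.53 (SE 0.24), and TOLLIP, an inhibitor of IRAK1, one of 0.45 (SE 0.28). UBE2N, a ubiquitin-conjugating enzyme, and the kinase MAP3K3 had log2 differences of -0.38 (SE 0.18) and 0.34 (SE 0.16), and all 4 overlapped between groups.

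Several inflammatory genes known to respond to interleukin 1 were higher in LPS libraries. Of 24 in the list, 23 were tested, of which 12 were higher and 1 lower at an unadjusted p under 0.05, against 5.13% and 5.26% of all genes tested, and 0 passed the adjusted threshold by limma. The median log2 difference was 0.41, beside -0.01 for all genes tested, and it was 0.22 without LPS library 1. LPS itself also drives these genes through TLR4, so the list does not single out interleukin 1, and the part of IL1B in it was not tested. The list was also chosen with earlier results of these data known, so its counts are a description and carry no test.

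CSF2, which encodes the growth factor GM-CSF, was at 8.66, 3.75 and 2.74 FPKM in LPS libraries 1 to 3, against 0.288, 0.0938 and 0.203 FPKM in control libraries 1 to 3. Its log2 difference of 2.86 (SE 0.36) had an adjusted p of 0.083 by limma. The chemokine genes CCL2 and CXCL1 had log2 differences of 1.65 (SE 0.38) and 1.11 (SE 0.28), and the matrix protease gene MMP10 one of 1.09 (SE 0.24). In all 4 genes the LPS libraries lay above the control libraries. VCAM1, an adhesion molecule for leukocytes, was the single gene lower at an unadjusted p under 0.05 by limma. It was at 26.6, 32.0 and 15.5 FPKM in LPS libraries 1 to 3 and 32.6, 40.9 and 39.8 FPKM in control libraries 1 to 3, with a log2 difference of -0.66 (SE 0.25). IL6 was also lower in every LPS library than in any control library. Its level was 7.10, 6.91 and 5.45 FPKM in LPS libraries 1 to 3 and 7.68, 9.42 and 7.56 FPKM in control libraries 1 to 3, with a log2 difference of -0.32 (SE 0.15).

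**Figure D4:**
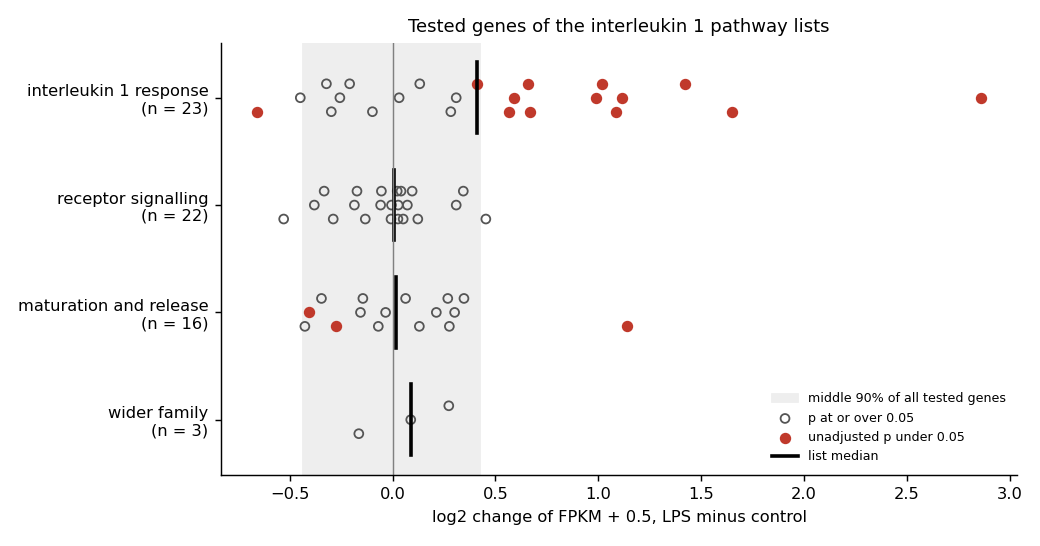
Log2 difference of LPS minus control on the log2(FPKM + 0.5) scale for the tested genes of the 4 pathway lists, a point per gene, with the list median as a line filled points for an unadjusted p under 0.05 and a shaded band for the middle 90% of all tested genes. The interleukin 1 response list has a median of 0.41 and the signalling list one of 0.01.

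The genes whose pattern over the 6 libraries was most like that of each tested member were ranked by Pearson correlation of log2(FPKM + 0.5) among 12067 other genes. Nearest to IL1B were SLAMF8 (r = 0.997), MICB (r = 0.996) and MAST2 (r = 0.996). Nearest to IL33 were AK3 (r = 0.986), PTGER2 (r = 0.985) and SVEP1 (r = 0.984). Nearest to IL1R1 were PLTP (r = 0.992), FAM189B and NISCH, nearest to IL1RAP were HDHD2 (r = 0.993), N4BP2L2 and ROGDI, and nearest to IL1RL1 were C11orf24 (r = 0.994), PHETA1 and FEZ1. With 6 points that share the group difference and the library, such values arise for many genes, and 95 genes had an r over 0.95 with IL1B, so these are a description.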

How the data were processed

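RNA-seq had been summarised by the authors as FPKM, and the deposited tables hold these FPKM values per gene and per transcript. The submitters' processing notes list HISAT2 and StringTie, with no version, and the mouse build mm9. The deposited tables, however, have human Ensembl identifiers whose coordinates are those of GRCh38. Spans of 6 of the 7 members matched GENCODE 29. The exception, IL33, ends further downstream in the deposited table because of an assembled transcript. The sources used here give neither counts nor depth, and no strand or quantification setting.

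Values were analysed as log2(FPKM + 0.5) where the mean was at least 0.5 FPKM, with limma 3.58.1 in R 4.3.3, group as the only term, eBayes with a trend, and two-sided p-values adjusted by Benjamini-Hochberg over each table. This scale understates changes of low genes. The script was tested on simulated data. The text names all members, their transcripts with a mean of at least 0.5 FPKM, up to 4 genes per pathway list with the largest differences and a mean of at least 1 FPKM, and the 3 genes nearest to each tested member. CAPN2, CASP1, CASP4, COL1A1, COL3A1, EMCN, IL6, IRAK2, LUM, MYD88, MYH11, NLRP1, NLRP3, PDGFRB and VCAM1 were named after their values were seen. Where a symbol had 2 identifiers, the one with the higher mean was used. Members and lists were chosen with earlier results of these data known. Alternatives were other pseudocounts, filters, scalings, weights, a replicate block and leaving out each library. A marker in the mast and lymphoid list is not reported here.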

Additional observations from a re-analysis of the deposited data

How the results depend on the processing

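At gene level IL1B stayed higher and IL33 lower under all alternatives, with an unadjusted p under 0.05 each time. The transcript IL33-201 stayed lower, but its unadjusted p by limma was under 0.05 in only 10 of 14 settings and reached 0.0756. IL1B-201 was under 0.05 in all 14 settings, and both counts include the main fit. Without single libraries the log2 difference ran from 1.07 to 1.73 for IL1B and from -1.10 to -0.58 for IL33. IL1RAP ran from -0.22 to 0.047 without single libraries and changed sign, to 0.039 without LPS replicate 1 and 0.047 without control replicate 3. IL1R1-204 turned to 0.20 without LPS replicate 2 and likewise without LPS replicate 3, against -0.16 with all libraries and -0.60 without control replicate 2, and IL1R1-210 turned to -0.0093 without control replicate 1 and -0.046 without control replicate 3, against 0.086 with all libraries and 0.31 without control replicate 2. The median log2 differences of the wider family, maturation and release, and receptor signalling lists lay close to 0 and took either sign, from -0.16 without a filter to 0.26 without control replicate 1 for the wider family, from -0.053 without LPS replicate 3 to 0.076 without control replicate 1 for maturation and release, and down to -0.022 without LPS replicate 3 for receptor signalling, while that of the response list ran from 0.22 without LPS replicate 1 to 0.53 without LPS replicate 3 and was positive under each alternative run for it. List medians were not computed with library weights or robust eBayes. The cause was not tested.

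By limma 7 genes passed with all libraries. Without a filter 0 passed (1563 at an unadjusted p under 0.05), and without single libraries 0 to 8 passed. Counts were 0 without LPS replicate 2 (1213 unadjusted), 0 without control replicate 2 (1046 unadjusted), 2 without LPS replicate 3 and 4 without control replicate 1. An unadjusted p under 0.05 gave 1254 genes, and adding a 2-fold change gave 105. For transcripts the count was 26, with 15 without a filter, 28 to 53 without single libraries, 1324 unadjusted and 685 with a 2-fold change. With the replicate block 0 genes (1451 unadjusted) and 0 transcripts (1171 unadjusted) passed. Same-numbered libraries correlated at 0.0175, 0.105 and 0.0605 in their deviations, and differently numbered ones at -0.0840 to 0.0228. Control libraries 2 and 3 correlated best with the LPS library of their own number, and control library 1 with LPS library 3. The labels do not say that the numbers mark pairs, so they were not taken as pairs. With the block the SE was 0.19 for IL1B and 0.27 for IL33. FPKM gives no depth, so the precision of IL1A and other low genes is unknown.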

Other observations

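The library with the highest IL1B was not the library with the highest response genes. LPS library 3 had the highest IL1B and the lowest IL33 and IL1R1 of the 6, whereas of the 23 tested interleukin 1 response genes 15 were highest among LPS libraries in library 1, 5 in library 2 and 3 in library 3. Groups did not overlap for 13 higher and 2 lower of the 23 (IL6 and VCAM1 being lower), against 8.68% and 8.73% of all genes tested. Of those 13, 11 were highest in LPS library 1. The list was chosen with earlier results of these data known. How often each LPS library was the highest over all genes was not computed, so these counts only describe the list.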
